A study of Homo sapiens with 12 samples.

Results

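Amino acid transporters of the plasma membrane were examined as a set of 10 genes, SLC7A11, SLC7A5, SLC3A2, SLC7A1, SLC38A1, SLC38A2, SLC1A4, SLC1A5, SLC6A9 and SLC43A1. They were picked by gene symbol from the 60662 genes of the table, and each encodes a carrier, or the partner chain of a carrier, that moves amino acids across the cell surface. The choice was made with earlier results of these data known, and 24 further plasma membrane carriers and heavy chains were listed apart. The cells were NCI-H295R, an established line of human adrenocortical carcinoma that makes cortisol. All 12 cultures spent 12 h in medium without serum and were then exposed for 24 h to vehicle (VEH, 0.1% DMSO), to CJ28 at 30 µM, a benzimidazolylurea that lowers cortisol synthesis, or to metyrapone (MET) at 30 µM, an inhibitor of 11β-hydroxylase, with 4 biological replicates in each group. Values are TPM, a length-corrected measure of a gene's share of the transcripts in a library, which allows levels of different genes to be set side by side. All 10 genes passed the filter on low values (0.5 TPM or more in at least 4 samples), as did 16815 genes in total, and they were compared between groups by limma on log2(TPM + 0.1). SE is the standard error of the log2 fold change. A gene was counted as risen or fallen at a Benjamini-Hochberg adjusted p under 0.05 over all tested genes.

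Cells take up amino acids through carriers with overlapping substrates. SLC7A11 is the light chain of system xc-, which imports cystine in exchange for glutamate, and cystine supplies cysteine for glutathione. SLC7A5 is a light chain of system L, which exchanges large neutral amino acids such as leucine. Both light chains need SLC3A2, the heavy chain also known as CD98, to reach the membrane, whereas SLC43A1, another carrier of large neutral amino acids, works without it. SLC7A1 carries arginine and lysine, SLC38A1 and SLC38A2 take up glutamine and other small neutral amino acids together with sodium, SLC1A4 and SLC1A5 exchange alanine, serine, cysteine and, for SLC1A5, glutamine, and SLC6A9 takes up glycine. Several of these genes are known targets of ATF4, the transcription factor of the integrated stress response, which binds C/EBP-ATF composite elements, and SLC7A11 is also a known target of NRF2, the factor of the antioxidant response.

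The promoter windows of the genes were searched for 3 motifs on both strands, since most of the genes moved together. A window runs from 250 bases before to 50 bases after an annotated start, and RefSeq (GRCh38.p14) gave 16 windows for 9 of the 10 genes, all but SLC7A11. The composite element, spelled TGATGNAA, was found in 5 windows of 5 genes, and 3.62% of all 35116 windows held it. SLC3A2, SLC38A1, SLC1A4 and SLC1A5 had several windows, and only 1 window of each held a match. In each of them the window at the most upstream start held none. No window of SLC7A5, SLC38A2, SLC6A9 or SLC43A1 held a match. The 5 matches are printed here, 5′ to 3′ on the strand of the gene, with the 8 letters of the match in capitals, so that the matched letters can be compared between genes.
SLC3A2: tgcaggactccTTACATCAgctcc
SLC7A1: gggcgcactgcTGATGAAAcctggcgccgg
SLC38A1: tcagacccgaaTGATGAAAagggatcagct
SLC1A4: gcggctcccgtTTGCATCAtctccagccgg
SLC1A5: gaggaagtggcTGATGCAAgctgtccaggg

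The stretch of SLC3A2 lies on the plus strand at chr11:62881725-62881748, that of SLC7A1 on the minus strand at chr13:29595663-29595692, that of SLC38A1 on the minus strand at chr12:46266502-46266531, that of SLC1A4 on the plus strand at chr2:64989381-64989410 and that of SLC1A5 on the minus strand at chr19:46784893-46784922. In GENCODE v44 the match in SLC3A2 is inside an exon, in coding sequence of 2 transcripts, the match in SLC7A1 is in exonic UTR, and those in SLC38A1, SLC1A4 and SLC1A5 fall inside the gene but in no exon. SLC1A4 and SLC1A5 share the same 8 letters on opposite strands, and SLC7A1 and SLC38A1 share another 8 on the same strand. The core of the antioxidant response element, spelled TGACNNNGC, was present in 4 windows of 4 genes (SLC7A5, SLC3A2, SLC7A1 and SLC1A5) against 13.3% of all windows. The core of the dioxin response element, spelled GCGTG, was present in 10 windows of 7 genes against 36.5% of all windows. No match of one motif in a printed stretch overlapped a match of another. These matches describe letters only, and no binding was measured.

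Nuclear protein-coding genes held 24.3% to 24.8% of the TPM in VEH and 24.1% to 24.6% in MET but 21.3% to 21.4% in CJ28, so a coding gene that kept pace with the others had a lower TPM in CJ28. For CJ28 against VEH the median over every tested gene was a log2 fold change of -0.13, and this was 0.014 after median-of-ratios scaling and 0.088 with TPM recomputed over nuclear protein-coding genes. All 6 adrenocortical markers examined (NR5A1, CYP17A1, CYP11A1, HSD3B2, STAR and CYP21A2) reached 0.5 TPM, HSD3B2 only in some samples. HSD3B2 was low throughout, with at most 0.97 TPM and a mean of 0.19 in CJ28. The 6 markers summed to 269 to 280 TPM in VEH and 269 to 283 in MET but 108 to 116 in CJ28. The part of this difference in the results was not tested. Markers of adrenal medulla, fibroblasts, endothelium and leukocytes summed to at most 1.63 TPM per list in any sample. No 2 samples were identical.

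In VEH the order of levels ran from the glutamine carrier SLC38A2, with 73.7 ± 2.68 TPM (SD, n = 4), through SLC3A2 with 54.8 ± 2.08 and SLC38A1 with 24.3 ± 0.398, down to SLC7A5 with 1.79 ± 0.270. Between these, SLC6A9 had 11.6 ± 1.44 TPM, SLC7A11 9.52 ± 0.762, SLC1A4 8.28 ± 0.700, SLC7A1 5.10 ± 0.609, SLC1A5 3.01 ± 0.203 and SLC43A1 2.24 ± 0.467. The samples of SLC6A9 and SLC7A11 overlapped, as did those of SLC7A11 and SLC1A4, of SLC1A5 and SLC43A1, and of SLC43A1 and SLC7A5. In CJ28 SLC3A2 came first, followed by SLC38A2, SLC38A1 and SLC7A11, then by SLC1A4, SLC6A9 and SLC43A1, whose neighbours in this order overlapped, and by SLC7A1, SLC1A5 and SLC7A5, which were separate. MET kept the order of VEH, and only SLC1A5 and SLC43A1 overlapped there. The 10 genes together held 189 to 199 TPM in VEH and 185 to 192 in MET against 420 to 435 in CJ28, and SLC3A2 made up 28.2% ± 1.55 of this sum in VEH, 50.6% ± 0.197 in CJ28 and 29.1% ± 0.677 in MET.

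The comparison of CJ28 with VEH asks how the benzimidazolylurea alters these genes. With CJ28, 8 of the 10 genes rose and none fell, while 19.9% of all tested genes rose and 37.1% fell (57% in either direction). After median-of-ratios scaling 4925 of all 16815 tested genes rose and 4430 fell. With TPM over nuclear protein-coding genes 4907 of 12506 tested genes rose and 3294 fell. The higher genes then made up 52.6% and 59.8% of all called genes, against 34.9% without either. Under both scalings 9 of the 10 transporters rose, SLC7A5 being the added one. The 3 genes with the greatest rise were the large neutral amino acid carrier SLC43A1 (4.56 times the VEH mean), the heavy chain SLC3A2 (3.96 times) and the cystine carrier SLC7A11 (2.95 times). SLC38A1, SLC1A5, SLC1A4, SLC7A1 and SLC38A2 also rose, and SLC7A5 and SLC6A9 did not pass the test. The median log2 fold change of the 10 genes was 0.70. CJ28 and VEH values were fully separate in 8 of the 10 genes, and 50.3% of all tested genes showed such separation. In bulk RNA, a change in the transcripts of every cell cannot be told apart from a change in the number of cells that make them.

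**Figure D1:**
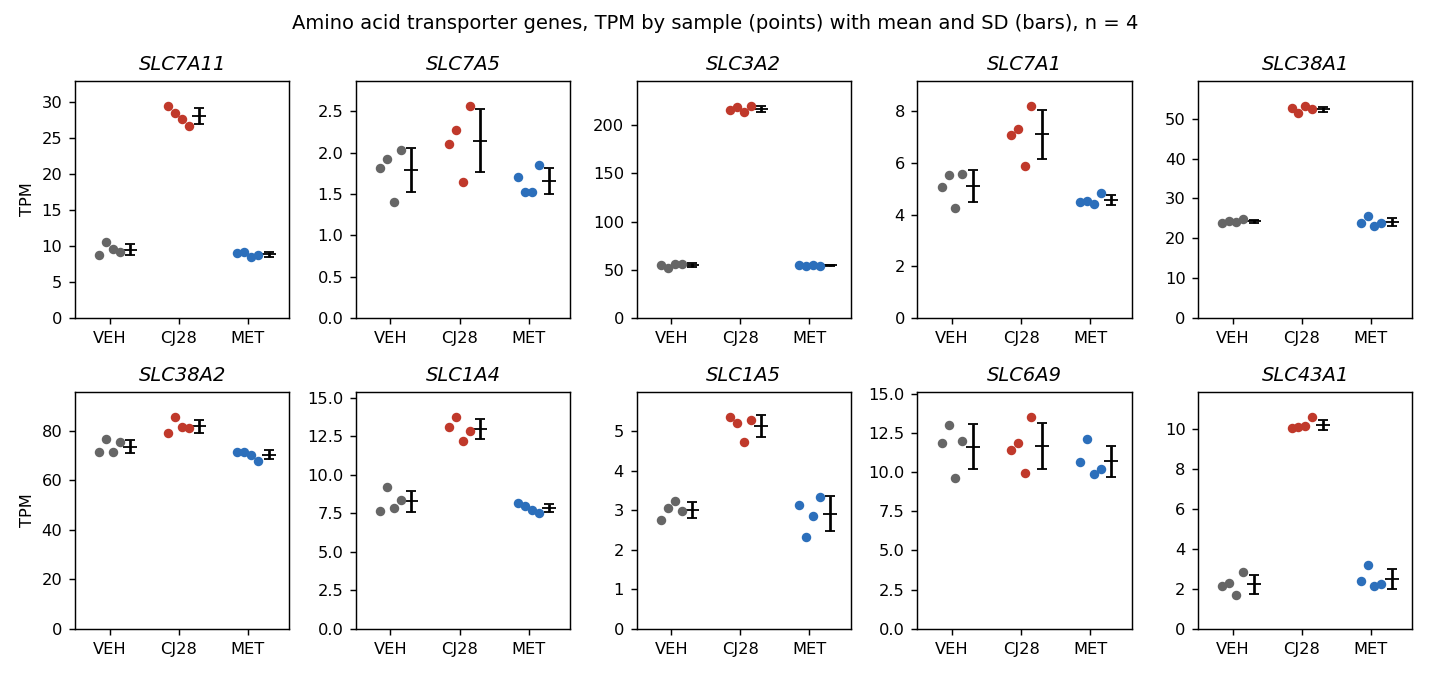
TPM (vertical axes, each from 0) of the 10 transporter genes in the VEH, CJ28 and MET samples (horizontal axes). Points are samples and bars are the mean and SD of 4 samples. CJ28 samples lie apart from VEH samples for all genes but SLC7A5 and SLC6A9, and MET samples overlap with VEH samples for every gene.

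SLC3A2 (ENSG00000168003.16, chromosome 11, 62856102 to 62888875, plus strand, GRCh38) had 54.92, 51.77, 56.30 and 56.04 TPM in the VEH samples and 215.45, 218.97, 213.48 and 219.46 in the CJ28 samples. The lowest CJ28 sample was thus far above the highest VEH sample, and the spread within groups was small. Its log2 fold change was 1.98 (SE 0.030, limma adjusted p = 1.56e-13), and only 0.357% of the tested genes had a higher one.

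SLC7A11 (ENSG00000151012.13, chromosome 4, 138164097 to 138242349, minus strand) had 8.74, 10.54, 9.56 and 9.22 TPM in VEH and 29.42, 28.45, 27.72 and 26.69 in CJ28. No CJ28 sample came near the VEH range. The log2 fold change was 1.55 (SE 0.057, limma adjusted p = 2.36e-10). The antisense lncRNA SLC7A11-AS1 overlaps this gene on the opposite strand. It rose as well, from 1.56 ± 0.302 to 3.67 ± 0.678 TPM (log2 fold change 1.19, adjusted p = 1.79e-04 in limma). The libraries were made with a stranded kit, but the strand setting of the quantification is not given in the sources used here, so reads of the pair may not have been told apart.

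SLC43A1 (ENSG00000149150.9, chromosome 11, 57484534 to 57515780, minus strand) had 2.13, 2.28, 1.70 and 2.83 TPM in VEH and 10.03, 10.07, 10.13 and 10.58 in CJ28. This carrier moved from near the bottom of the order in VEH to the seventh place in CJ28. The log2 fold change of 2.16 was the largest of the 10 (SE 0.14, limma adjusted p = 5.88e-08). Only 0.25% of the tested genes had a higher one.

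The sodium-coupled carriers SLC38A1 and SLC38A2 both rose, but by different amounts. SLC38A1 (ENSG00000111371.16, chromosome 12, 46183063 to 46270017, minus strand) had 23.88, 24.39, 24.07 and 24.79 TPM in VEH and 52.55, 51.44, 53.04 and 52.28 in CJ28. Every CJ28 sample was more than 51 TPM and every VEH sample less than 25. The log2 fold change was 1.10 (SE 0.034, limma adjusted p = 6.31e-11). SLC38A2 (ENSG00000134294.14, chromosome 12, 46358188 to 46372773, minus strand), the most abundant of the 10 in VEH, had 71.41, 76.62, 71.46 and 75.36 TPM there and 79.11, 85.58, 81.43 and 81.33 in CJ28. The groups were close but did not overlap, with a log2 fold change of 0.15 (SE 0.035, limma adjusted p = 0.00276) that was 0.30 after median-of-ratios scaling.

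Of the neutral amino acid exchangers, SLC1A5 (ENSG00000105281.12, chromosome 19, 46774883 to 46788594, minus strand) had 2.74, 3.06, 3.23 and 2.99 TPM in VEH and 5.35, 5.2, 4.73 and 5.27 in CJ28. The log2 fold change was 0.76 (SE 0.10, limma adjusted p = 3.52e-05). SLC1A4 (ENSG00000115902.11, chromosome 2, 64988477 to 65023865, plus strand) had 7.68, 9.24, 7.85 and 8.35 TPM in VEH and 13.11, 13.75, 12.23 and 12.83 in CJ28. Its log2 fold change was 0.64 (SE 0.061, limma adjusted p = 1.66e-06). For both genes every CJ28 sample lay above every VEH sample. The arginine and lysine carrier SLC7A1 (ENSG00000139514.13, chromosome 13, 29509414 to 29595688, minus strand) had 5.07, 5.52, 4.25 and 5.56 TPM in VEH and 7.09, 7.29, 5.87 and 8.18 in CJ28. The lowest CJ28 value, of replicate 3, was only slightly above the highest VEH value, and the log2 fold change was 0.47 (SE 0.10, limma adjusted p = 0.00175).

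SLC7A5 and SLC6A9 overlapped between the groups and did not pass the test. SLC7A5 (ENSG00000103257.9, chromosome 16, 87830023 to 87869507, minus strand) had 1.81, 1.92, 1.41 and 2.03 TPM in VEH and 2.11, 2.27, 1.65 and 2.56 in CJ28. The 2 groups overlapped through replicate 3 of CJ28, and the log2 fold change was 0.24 (95% confidence interval -0.06 to 0.55, adjusted p = 0.159 in limma). The adjusted p was 0.0351 without CJ28 replicate 3 (log2 fold change 0.36), 0.0213 after median-of-ratios scaling (0.39) and 0.0111 with TPM over nuclear protein-coding genes (0.46). In the other direction, it was 0.405 without VEH replicate 3 (0.14) and 0.378 without CJ28 replicate 4 (0.16), so both the call and the size for this gene depended on the setting. RSEM may also divide reads between SLC7A5 and its pseudogenes SLC7A5P1 and SLC7A5P2, which had up to 1.76 and 1.79 TPM. How alike the sequences of these genes are was not examined. The summed TPM of the 3 was 3.22 ± 0.320 in VEH and 4.20 ± 0.571 in CJ28 (exact permutation test, two-sided, p = 0.0571, n = 4 per group). The glycine carrier SLC6A9 (ENSG00000196517.12, chromosome 1, 43991500 to 44031467, minus strand) had 11.87, 13.01, 9.60 and 11.99 TPM in VEH and 11.41, 11.88, 9.94 and 13.50 in CJ28. These ranges lay on top of each other, with a log2 fold change of 0.01 (95% confidence interval -0.22 to 0.24, adjusted p = 0.953 in limma). The lncRNA AL139220.2, which overlaps SLC6A9 on the opposite strand, had 27.2 to 35.7 TPM over all samples.

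**Figure D2:**
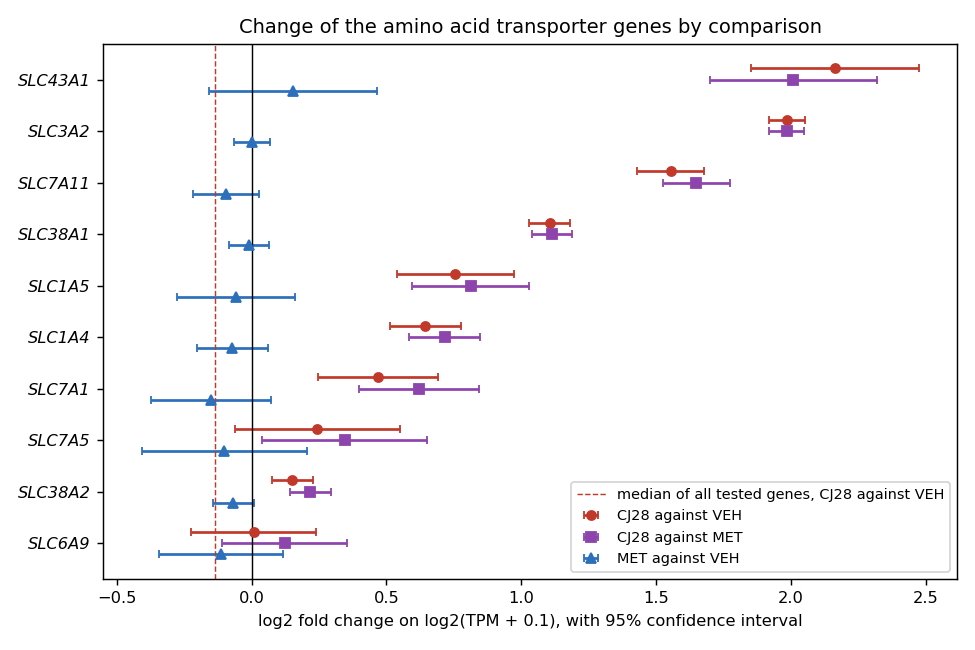
Log2 fold change on log2(TPM + 0.1) (horizontal axis) of the 10 transporter genes (vertical axis) for CJ28 against VEH, CJ28 against MET and MET against VEH, with 95% confidence intervals from limma. The dashed line is the median of all tested genes for CJ28 against VEH, -0.13. Intervals of MET against VEH include 0 for every gene, and those of CJ28 against VEH lie above 0 for 8 genes.

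The comparison of MET with VEH asks whether a blocker of 11β-hydroxylase alters the same genes. None of the 10 passed the test, and 0 of the 10 had an unadjusted p under 0.05 in limma (smallest 0.0814, for SLC38A2). Of all tested genes, 0.00595% were called, which is 1 gene, H4C12, a histone gene named here after its value was seen. Log2 fold changes ranged from -0.15 for SLC7A1 to 0.15 for SLC43A1, and 8 of the 10 were below 0. SLC3A2 had 55.57, 54.08, 55.20 and 54.22 TPM in MET, and its log2 fold change was 0.001 (95% confidence interval -0.06 to 0.07). SLC7A11 had 9.03, 9.23, 8.48 and 8.79 TPM in MET, with a log2 fold change of -0.10 (95% confidence interval -0.22 to 0.03). For SLC43A1 the MET samples had 2.38, 3.20, 2.14 and 2.24 TPM, and the interval was wider, from -0.16 to 0.46. MET and VEH samples overlapped in all 10 genes, and 2.81% of all tested genes did not overlap.

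CJ28 and MET, used at the same dose and time, were also tested directly against each other. The same 8 genes were higher in CJ28, while 20.9% of all tested genes were higher and 34.6% lower (55.5% in either direction). Higher genes made up 37.7% of the called genes, 52.3% after median-of-ratios scaling and 61.4% with TPM over nuclear protein-coding genes. They were 4824 of 16815 tested genes after median-of-ratios scaling and 5039 of 12506 with TPM over nuclear protein-coding genes. Both comparisons of CJ28 use the same CJ28 samples, so they are not independent. The log2 fold changes for CJ28 against MET were 2.01 for SLC43A1, 1.98 for SLC3A2, 1.65 for SLC7A11, 1.11 for SLC38A1, 0.81 for SLC1A5, 0.72 for SLC1A4, 0.62 for SLC7A1 and 0.22 for SLC38A2. The largest adjusted p of these 8 was 2.21e-04 in limma, for SLC7A1. CJ28 and MET were separate in 8 of the 10 genes, against 50.2% of all tested genes. SLC7A5 had 1.71, 1.53, 1.53 and 1.85 TPM in MET, and its log2 fold change of 0.34 had an adjusted p of 0.0534 in limma. SLC6A9 had 10.66, 12.09, 9.86 and 10.17 TPM in MET, with a log2 fold change of 0.12 (adjusted p = 0.351 in limma). After median-of-ratios scaling both passed the test, SLC7A5 with 0.46 (adjusted p = 0.00874) and SLC6A9 with 0.24 (adjusted p = 0.0444), and with TPM over nuclear protein-coding genes SLC6A9 had 0.31 (adjusted p = 0.0118).

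The balance between the heavy chain and its light chains was then described, because a ratio of TPM within a sample is not altered by the scaling of the library. The light chains that pair with SLC3A2 are SLC7A5, SLC7A6, SLC7A7, SLC7A8, SLC7A10 and SLC7A11. Their summed TPM was 33.9 ± 2.00 (SD, n = 4) in VEH, 46.8 ± 2.08 in CJ28 and 33.3 ± 0.836 in MET. For each TPM of SLC3A2 there were 0.622 ± 0.0614 TPM of light chains in VEH, 0.216 ± 0.00858 in CJ28 and 0.609 ± 0.0141 in MET. The log2 ratio was -0.69 in VEH and -2.21 in CJ28, a difference of -1.52, and the groups were separate. A two-sided exact permutation test gave p = 0.0286, and 4 against 4 samples cannot give a smaller one. Adjusted over all 21 tests of ratios this p was 0.05, which does not lie under the threshold, and the same holds for each ratio below that reached the smallest p. Between MET and VEH the difference was -0.03 (exact permutation test, p = 0.971).

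SLC7A8, a system L light chain, was the most abundant partner in VEH, with 53.6% ± 2.05 of the light chain TPM, followed by SLC7A11 with 28.01% ± 0.994. In CJ28 the order was the other way round, with 24.6% ± 1.29 for SLC7A8 and 60.1% ± 3.28 for SLC7A11. MET samples kept the VEH order, with 54.0% ± 1.03 and 26.7% ± 1.58. SLC7A8 itself fell from 18.2 ± 1.04 to 11.5 ± 0.961 TPM with CJ28 (log2 fold change -0.66, adjusted p = 1.47e-06 in limma). SLC7A6, which exchanges arginine for neutral amino acids, had 3.97 ± 0.538 TPM in VEH and 4.90 ± 0.886 in CJ28 (adjusted p = 0.109 in limma, 0.0188 after median-of-ratios scaling). SLC7A5 made up 5.28% of the light chain TPM in VEH and 4.58% in CJ28. SLC7A7 and SLC7A10 did not pass the filter on low values, with at most 0.50 and 0.25 TPM in any sample.

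**Figure D3:**
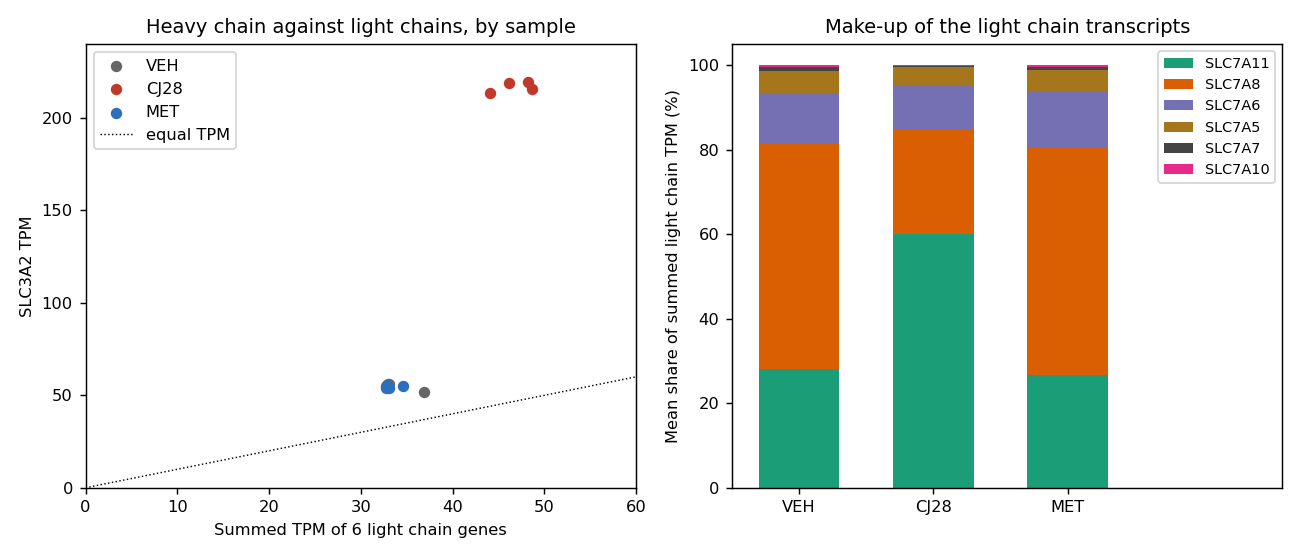
Left, TPM of the heavy chain SLC3A2 (vertical axis) against the summed TPM of 6 light chain genes (horizontal axis) in each sample, with a dotted line of equal TPM. Right, mean share of each light chain gene in that sum (percent, stacked bars) for VEH, CJ28 and MET, where SLC7A11 takes 28.01%, 60.1% and 26.7%.

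Ratios between single genes were compared by the same test, and their differences went in both directions. The log2 ratio of SLC7A11 to SLC3A2 was -2.51 in VEH and -2.95 in CJ28, and that of SLC7A5 to SLC3A2 was -4.87 and -6.61. TPM of SLC7A11 was 5.41 ± 0.996 times that of SLC7A5 in VEH and 13.4 ± 2.67 times in CJ28. Likewise SLC43A1 stood at 1.24 ± 0.103 times SLC7A5 in VEH and 4.87 ± 0.886 times in CJ28, and SLC38A1 at 0.330 ± 0.00823 times SLC38A2 in VEH and 0.640 ± 0.0273 times in CJ28. CJ28 and VEH were separate in each of these 5 ratios, with the same p of 0.0286 in the exact permutation test. The ratio of SLC1A4 to SLC1A5 was 2.76 ± 0.244 in VEH and 2.53 ± 0.103 in CJ28, which did not exceed the spread of the samples (exact permutation test, p = 0.2). Between MET and VEH the samples of all 7 ratios overlapped, and the smallest p of the exact permutation test was 0.114, for SLC43A1 to SLC7A5.

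Variation inside the groups was shared by some of the genes. Each sample's deviation from its group mean, on log2(TPM + 0.1), was correlated between genes over the 12 samples, as a description only, since the points of a pair come from the same libraries. SLC7A5 and SLC7A1 had the highest r, 0.969, and SLC7A1 and SLC6A9 followed with 0.843. The median over all 45 pairs was 0.192, and the lowest was -0.62 for SLC7A11 and SLC3A2. For SLC7A1 replicate 3 was the lowest and replicate 4 the highest in each of the 3 groups, and SLC6A9 was also lowest in replicate 3 of each group. SLC7A5 deviated by -0.31 in VEH replicate 3 and by -0.34 in CJ28 replicate 3. Across all tested genes, r between same-numbered samples of different groups was -0.12 to 0.039 for the 12 pairs.

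**Figure D4:**
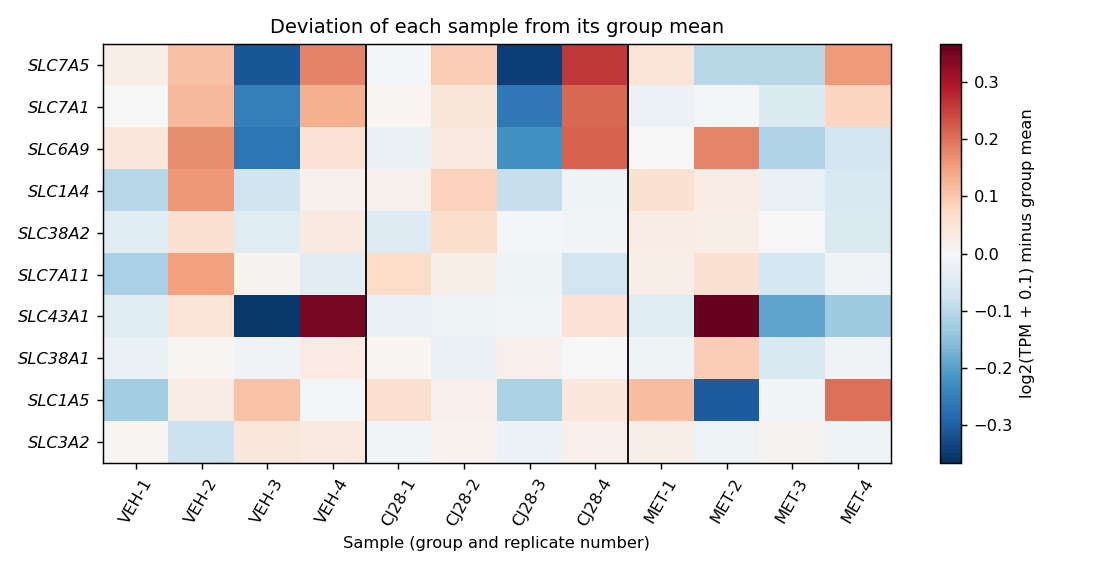
Deviation of each sample (horizontal axis, group and replicate number) from its group mean on log2(TPM + 0.1) (colour scale) for the 10 transporter genes (vertical axis). SLC7A5, SLC7A1 and SLC6A9 are low together in replicate 3 of VEH and of CJ28, at -0.31, -0.25 and -0.26 in VEH and -0.34, -0.26 and -0.22 in CJ28.

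The genes whose log2(TPM + 0.1) followed SLC7A11 and SLC3A2 most closely over the 12 samples were sought among 8073 genes with a mean of at least 5 TPM. For SLC7A11 they were LONRF2, PTPDC1, SARS1, TIPARP and NBPF1, with Pearson's r from 0.997 to 0.998. TIPARP reached this mean only through CJ28, with 2.2 TPM in VEH and 2.0 in MET against 23.1 in CJ28. For SLC3A2 the closest genes were CEBPG, XBP1, HYOU1, TRIB3 and SHMT2, with r from 0.998 to 0.999. Every one of these genes was higher in CJ28 than in VEH and MET, as with TRIB3, with 6.81 TPM in VEH against 79.9 in CJ28 and 6.83 in MET, so these r mainly follow the difference between the groups.

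Other amino acid carriers did not share a single direction with CJ28. Of 24 further plasma membrane carriers and heavy chains listed, 10 passed the filter. Of these 4 rose, 4 fell and 2 did not pass the test, with a median log2 fold change of 0.19. Over all tested genes 19.9% rose and 37.1% fell, with a median of -0.13. The aromatic amino acid carrier SLC16A10 fell from 1.57 ± 0.280 to 0.598 ± 0.171 TPM (log2 fold change -1.28, adjusted p = 9.49e-05 in limma), and the arginine and lysine carrier SLC7A2 from 2.72 ± 0.0741 to 1.80 ± 0.152 (log2 fold change -0.57, adjusted p = 8.06e-05). The taurine carrier SLC6A6 rose from 13.3 ± 0.394 to 18.4 ± 1.24 TPM (log2 fold change 0.46, adjusted p = 6.58e-06 in limma). The calls also covered SLC1A3, SLC1A1 and SLC6A15, which rose, and SLC1A2, which fell, named after their values were seen. SLC6A15 passed the filter only through CJ28, with 0.59 to 1.18 TPM there and at most 0.40 in VEH and 0.34 in MET. Its place among the 4 risen carriers thus depended on the group where it was high. The samples of SLC1A2 overlapped, with 0.41 to 1.23 TPM in VEH and 0.25 to 0.45 in CJ28. The 14 others had at most 0.77 TPM in any sample, and 4 of them were listed at 0 throughout. In MET 0 of the 10 tested carriers passed.

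Carriers of inner membranes also went both ways. Of 6 lysosomal carriers 2 rose and 2 fell with CJ28, beside 19.9% and 37.1% of all tested genes. SLC7A14, named after its values were seen, rose from 0.40 ± 0.0455 to 1.89 ± 0.0577 TPM. No VEH sample of SLC7A14 reached 0.5 TPM (highest 0.46), and too few MET samples did (highest 0.54). It thus passed the filter only through CJ28, the group where it was high. SLC36A1 fell from 4.02 ± 0.235 to 2.42 ± 0.430 TPM, and SLC38A7 rose from 5.25 ± 0.469 to 6.27 ± 0.422. SLC66A1, a lysosomal carrier of cationic amino acids, was called lower (log2 fold change -0.13, adjusted p = 0.0435 in limma), but its direction turned to 0.02 after median-of-ratios scaling. Under both scalings 3 of the lysosomal carriers were higher, CTNS being the added one, and 1 was lower. Of 8 tested mitochondrial carriers 4 rose and 4 fell, again beside 19.9% and 37.1% of all tested genes. The ornithine carrier SLC25A15 fell from 7.58 ± 0.370 to 4.42 ± 0.205 TPM and SLC25A13, an aspartate and glutamate carrier, from 10.96 ± 0.748 to 8.40 ± 0.0666. SFXN3 rose from 4.80 ± 0.428 to 7.70 ± 0.640 and SLC25A22, a glutamate carrier, from 2.20 ± 0.149 to 2.98 ± 0.616. The samples of SLC25A22 overlapped, with 2.11 to 2.42 TPM in VEH and 2.32 to 3.78 in CJ28 (limma adjusted p = 0.0288).

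Genes that act on or beside the transporters were read from lists put together with earlier results of these data known. Over all tested genes 19.9% rose and 37.1% fell with CJ28. All 11 tested genes of the ATF4 axis rose (median log2 fold change 1.89). TRIB3, a pseudokinase that inhibits ATF4, had a log2 fold change of 3.53, and DDIT3, the transcription factor CHOP, rose from 16.8 ± 0.316 to 155 ± 8.29 TPM (log2 fold change 3.20, adjusted p = 6.49e-14 in limma). CEBPB rose by 2.05 and ASNS, asparagine synthetase, by 1.98 on the log2 scale. ATF4 transcripts themselves rose less, from 70.4 ± 2.62 to 84.1 ± 2.39 TPM (log2 fold change 0.26, adjusted p = 3.61e-05 in limma). Of the 4 kinases of eIF2 alpha, which stand upstream of ATF4 translation, EIF2AK3 rose by 0.55 and EIF2AK2 had a log2 fold change of -0.30 (adjusted p = 0.00485 in limma, 0.0737 after median-of-ratios scaling). The list thus had 1 higher and 1 lower gene, but 3 higher and 0 lower under both scalings, where EIF2AK1 (0.22, adjusted p = 0.0147 after median-of-ratios scaling) and EIF2AK4 (0.098, adjusted p = 0.0436) were called too.

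The lists below are to be read beside the same shares of all tested genes, 19.9% risen and 37.1% fallen. Of 9 NRF2 regulators and targets 7 rose and 1 fell, with a median log2 fold change of 0.49. The fallen gene was the NRF2 inhibitor KEAP1, named after its values were seen. KEAP1 had -0.30, and its call was lost with TPM over nuclear protein-coding genes (-0.10, adjusted p = 0.0862). HMOX1, heme oxygenase, rose from 5.11 ± 0.415 to 25.5 ± 0.772 TPM (log2 fold change 2.30), and TXNRD1, SRXN1 and GCLM rose by 0.72, 0.69 and 0.52 on the log2 scale. NFE2L2, which encodes NRF2, rose by 0.27 (adjusted p = 0.00118 in limma). Among 6 tested genes of cysteine and glutathione metabolism, CBS rose from 7.08 ± 0.445 to 18.2 ± 1.15 TPM, and GCLC and GCLM rose. GPX4 was called lower (log2 fold change -0.14), a call lost after median-of-ratios scaling (0.01), where GSS was called higher (0.20). Of 11 genes of amino acid sensing by mTORC1, 2 rose and 6 fell (median log2 fold change -0.16, against -0.13 over all tested genes). After median-of-ratios scaling 3 were higher and 5 lower (median -0.013), and with TPM over nuclear protein-coding genes 3 were higher and 4 lower (median 0.040). MTOR was called higher under both (0.20 and 0.26), and SAR1B lost its lower call under both (-0.16 without scaling, -0.013 and 0.040 with it). SESN2, a leucine sensor, rose from 2.89 ± 0.175 to 11.2 ± 0.686 TPM, whereas SESN1, CASTOR2 and LAMTOR1 fell by 0.43, 0.83 and 0.46 on the log2 scale. The call for SESN1 was lost with TPM over nuclear protein-coding genes (-0.23, adjusted p = 0.0553). For MET none of the genes in these lists passed the test in limma.

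**Figure D5:**
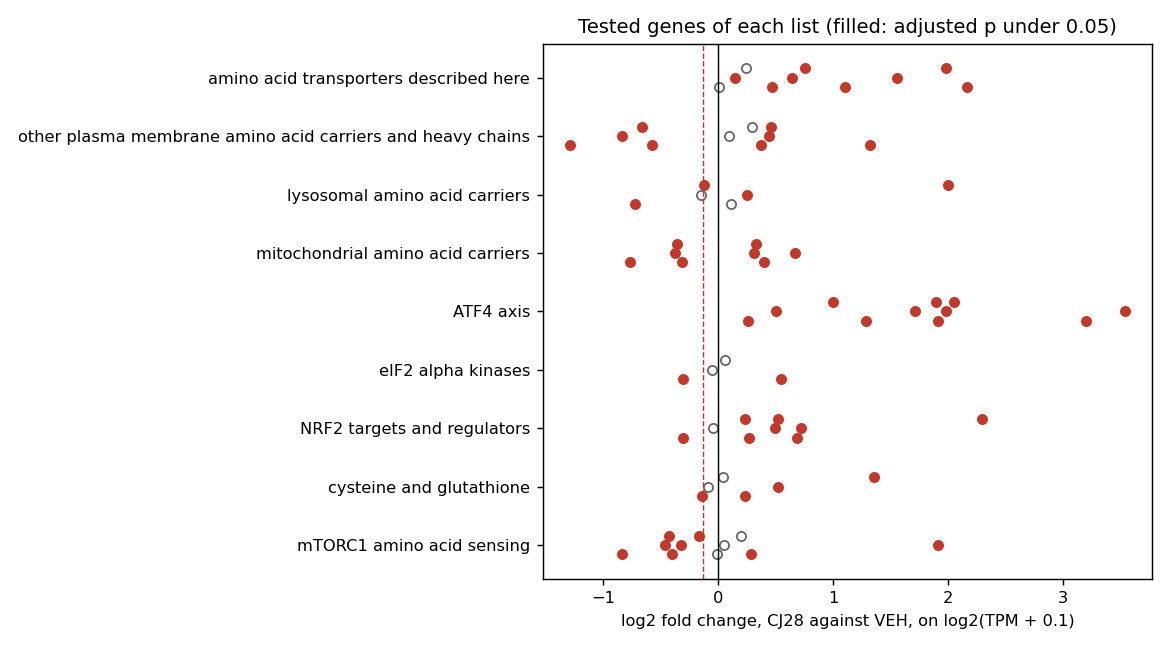
Log2 fold change for CJ28 against VEH on log2(TPM + 0.1) (horizontal axis) of every tested gene in each list (vertical axis). Filled points have an adjusted p under 0.05 in limma, open points do not, and the dashed line is the median of all tested genes, -0.13. All 11 points of the ATF4 axis are filled and above 0, whereas the other carriers fall on both sides.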

How the data were processed

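RNA depleted of ribosomal RNA was sequenced from both ends in 12 NCI-H295R samples, 4 per group, grouped by sample title. The authors trimmed reads with Cutadapt (version 2.8), aligned them to GRCh38 with STAR (version 2.7.10b) and quantified genes with RSEM (version 1.3.3), as their methods and processing notes give. The deposited values are TPM to 2 decimals. TPM keeps no depth, so counting error was not estimated and no count model was used. A pseudocount of 0.1 was added, and log2 values of the 16815 genes with at least 0.5 TPM in at least 4 samples entered limma (version 3.58.1; R 4.3.3; eBayes with a trend), all 12 samples in one fit, without covariates. Log2 fold changes on this scale understate changes of low genes. P-values are two-sided, and Benjamini-Hochberg adjustment covered all tested genes. Ratios were compared by exact permutation tests (smallest possible p 0.0286). The fit was tested on simulated data. Python (version 3.11.15) with pandas (version 2.3.3) and matplotlib (version 3.10.9) did the rest.

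The genes and lists were chosen with earlier results of these data known. Named are the 10 transporters, from each list the up to 4 called genes with the largest change and a mean TPM of at least 1, all SLC3A2 partners, ATF4, DDIT3, NFE2L2 and the 5 genes most like SLC7A11 and SLC3A2. GGT1, of the cysteine list, has 2 entries in the table and was not used here. Alternatives were pseudocounts of 1 and 0.01, a filter at mean TPM 1 or none, scaling by median of ratios or over nuclear protein-coding genes, a block for replicate number, separate fits of 2 groups, no trend and leaving out each sample. The sum of SLC7A5 with its pseudogenes was added after the data had been seen.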

Additional observations from a re-analysis of the deposited data

Results flagged for a closer look

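Of 51 groups of 4 samples examined, for 10 genes and 7 ratios, 2 held a sample far from the others by Dixon's criterion, for which chance gives about 1 in 20. In VEH the log2 ratio of the summed light chains to SLC3A2 was -0.49 in replicate 2 and -0.77 to -0.74 in the other samples. The log2 ratio of SLC43A1 to SLC7A5 in VEH was 0.46 in replicate 4 and 0.22 to 0.25 in the other samples.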

How the results depend on the processing

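The 8 genes called higher in CJ28 than in VEH and than in MET remained called in every alternative tried, and no gene was called lower. The count of genes called for MET against VEH was 1, and it was 0 with pseudocounts of 1 and 0.01 and with a mean TPM of at least 1, 2 with TPM over nuclear protein-coding genes, 5 over all genes above 0, and 1 to 2 with each sample left out. For the transporters described here and their ratios, directions turned only for values that passed no test. In the lists, some genes called lower for CJ28 against VEH turned as well. SLC66A1 went from -0.13 to 0.02 and GPX4 from -0.14 to 0.01 after median-of-ratios scaling. SAR1B went from -0.16 to 0.04 with TPM over nuclear protein-coding genes. For SLC6A9 in CJ28 against VEH the log2 fold change ranged from -0.080 to 0.082 with each sample left out and was below 0 without VEH replicate 3, without CJ28 replicate 4 (-0.064) and without CJ28 replicate 2 (-0.0026). For MET against VEH, SLC38A1 had 0.022 after median-of-ratios scaling, 0.0055 with TPM over coding genes and -0.039 to 0.010 with each sample left out (highest without MET replicate 3), SLC1A5 had -0.13 to 0.045 (highest without MET replicate 2), SLC7A5 summed with its pseudogenes had 0.14, and the log2 ratio of SLC7A11 to SLC7A5 was -0.018 with a pseudocount of 1. The cause was not tested. With the replicate number as a block, 9 genes were called higher in each CJ28 comparison, SLC7A5 being the added one (adjusted p = 0.0469 against VEH and 0.0106 against MET in limma), and 9546 genes were called for CJ28 against VEH instead of 9577. In the lists, the block ended the call of SLC25A22 (adjusted p = 0.0559), which left 3 higher mitochondrial carriers, and added SLC38A9 as lower (-0.15, adjusted p = 0.0360). No label says that equal numbers share a batch, and 0 of the 12 same-number pairs had a correlation over 0.1. After median-of-ratios scaling 52.6% of the genes called for CJ28 against VEH were higher, and 34.9% before. Without CJ28 replicate 3 the adjusted p of SLC7A5 was 0.0351 against VEH and 0.0108 against MET, and without MET replicate 4 it was 0.0471 against MET. Depth is not known from TPM, which limits what can be said of genes under about 1 TPM.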
